A study of Mus musculus with 16 samples.

Results

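Projection neurons of the striatum were followed through 9 of their characteristic genes in RNA sequencing data from mouse cortex: Drd1, Drd2, Adora2a, Gpr6, Ppp1r1b, Pde10a, Rgs9, Six3 and Syndig1l. The genes came from a list of striatal projection neuron genes, with symbols matched to the Ensembl identifiers of the table, and all 9 were found among its 18424 genes. The tissue was the medial prefrontal cortex (mPFC) of 16 male C57BL/6N mice at postnatal day 120. Each mouse was wild type (WT) or heterozygous (HT) for Arid1b, a subunit of the SWI/SNF chromatin remodeling complex. The mutation, a protein-truncating change in exon 5 made with a Cas9 nickase, is a single targeted allele present in every cell of the animal. Pups had been raised on the milk of dams that drank 0.2% saccharin water, either alone (vehicle, Veh) or with 0.1 mg/ml fluoxetine (Flx), a selective serotonin reuptake inhibitor, from postnatal day 3 to 21. After weaning, all mice drank plain water, so that the drug had been absent until day 120. The 4 groups are written by genotype and treatment, as in HT-Flx, and held 4 mice each, with 1 sample per mouse.

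The striatum lies beneath the frontal cortex and is built almost entirely of inhibitory spiny projection neurons. These neurons form a direct pathway, marked by the dopamine D1 receptor, and an indirect pathway, marked by the dopamine D2 receptor and an adenosine receptor. Dopamine and adenosine act in them through cyclic AMP, and DARPP-32, a phosphatase inhibitor, relays the signal. Cortical neurons use some of the same genes at lower levels, among them Drd1 and Ppp1r1b, so that a low value in cortex is not by itself striatal RNA. The question was how far these genes varied by genotype and treatment, and how far from mouse to mouse.

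Values are the authors' normalized counts, that is, estimated reads per gene scaled to make samples comparable. The sequencing depth behind them is unknown. Normalized totals ran from 92.8% to 104% of their mean, and no columns were identical. Arid1b, the targeted gene, averaged 2368 ± 432 (SD, n = 4) normalized counts in WT-Veh mice and 2159 ± 233 after fluoxetine, against 1795 ± 160 in HT-Veh and 1636 ± 61.0 in HT-Flx mice. For 10 genes of cortical projection neurons, such as Slc17a7 and Tbr1, the summed level lay between 120137 and 214882 in every sample. Camk2a, with a mean of 122489, made up most of this sum, which does not by itself verify the cortical label. The 9 striatal genes together summed to between 4082 and 16265. In 5 libraries, WT-Veh 1, WT-Flx 1, WT-Flx 2, WT-Flx 4 and HT-Veh 4, a score over 10 genes of the olfactory bulb, the mean log2(value + 1), lay between 7.22 and 9.43. In the other 11 samples it lay between 3.88 and 4.93. The sum of the cortical genes was 182924 or more in these 11, and between 120137 and 162734 in the 5 libraries with a high bulb score. Group differences below are therefore also given without these libraries. In that setting WT-Flx is left with replicate 3 alone, which is assumed to vary like the other samples.

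Promoter sequences are shown for Drd1 and Drd2, which mark the direct and the indirect pathway, and for Gpr6, whose promoter alone among those of the 9 genes found held a cyclic AMP response element, since cyclic AMP is the messenger that links most of these genes. They are RefSeq entries on GRCm38.p6, written 5′ to 3′, with 250 bases before the transcription start and 50 after it. The windows are chr13:54055609-54055908 (minus strand) for Drd1, chr9:49340153-49340452 (plus strand) for Drd2 and chr10:41072241-41072540 (minus strand) for Gpr6. Capitals mark GC boxes (GGGCGG, in either orientation) in Drd1 and Drd2 and the cyclic AMP response element (TGACGTCA) in Gpr6.
Drd1: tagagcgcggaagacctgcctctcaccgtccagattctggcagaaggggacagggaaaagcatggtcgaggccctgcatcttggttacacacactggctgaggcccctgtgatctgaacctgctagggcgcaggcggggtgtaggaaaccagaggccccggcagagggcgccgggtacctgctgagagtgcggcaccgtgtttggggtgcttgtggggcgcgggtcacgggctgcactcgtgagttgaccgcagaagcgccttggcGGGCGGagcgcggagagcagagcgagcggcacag
Drd2: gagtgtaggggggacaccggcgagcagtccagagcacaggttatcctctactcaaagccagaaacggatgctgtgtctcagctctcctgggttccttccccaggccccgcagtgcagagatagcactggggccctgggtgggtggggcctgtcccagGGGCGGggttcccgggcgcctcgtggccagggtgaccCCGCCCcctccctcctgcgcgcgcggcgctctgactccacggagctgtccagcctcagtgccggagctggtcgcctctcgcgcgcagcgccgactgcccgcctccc
Gpr6: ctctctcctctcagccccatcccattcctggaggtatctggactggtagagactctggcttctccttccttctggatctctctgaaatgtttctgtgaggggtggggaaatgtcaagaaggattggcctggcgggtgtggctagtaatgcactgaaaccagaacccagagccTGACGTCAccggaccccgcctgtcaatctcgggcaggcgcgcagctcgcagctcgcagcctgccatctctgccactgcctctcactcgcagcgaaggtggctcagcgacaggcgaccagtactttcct

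Of the 9 genes, 6 had a RefSeq promoter entry, with 8 entries in all. Ppp1r1b, Adora2a and Syndig1l had none. The response element in Gpr6 began 78 bases before the start, and 1.79% of all 32851 promoters held such a match. A GC box was found in 6 of the 8 entries, belonging to 4 genes, against 35.7% of all promoters. The TATA motif (TATAAA) occurred in the Rgs9 entry alone and in 13.6% of all promoters. Both strands were searched, and none of the 3 motifs is contained in another. GC content was 65.7% in the Drd1 window, 70.3% in that of Drd2 and 58.7% in that of Gpr6, against a median of 52.7% over all entries. These matches describe the letters of the windows only.

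The striatal genes differed severalfold between mice, and the same mice were high or low for nearly all of them. Drd1 (ENSMUSG00000021478; chromosome 13, 54051183 to 54055705, minus strand, GRCm38), the D1 receptor, had 110, 255, 453 and 299.8 normalized counts in WT-Veh replicates 1 to 4. WT-Flx mice had 486, 562, 226 and 279. HT-Veh mice had 351, 224, 147 and 711, and HT-Flx mice 392, 369.9, 138 and 275. The highest value, in HT-Veh 4, was 6.44 times the lowest, in WT-Veh 1, and the 4 groups overlapped throughout.

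Drd2 (ENSMUSG00000032259; chromosome 9, 49340627 to 49408177, plus strand), the D2 receptor, varied more widely, by 32.3 times between its lowest and highest sample. Its values were 33.6, 161.5, 322 and 130.5 in WT-Veh mice and 314.5, 379, 142 and 193 in WT-Flx mice. Among mutants they were 141, 60.2, 36.6 and 607 with vehicle and 327, 186, 18.8 and 79.5 with fluoxetine. HT-Veh 4 was again the highest sample, and HT-Flx 3, HT-Veh 3 and WT-Veh 1 were the only ones below 40. The ratio of Drd1 to Drd2 ran from 1.17 in HT-Veh 4 to 7.32 in HT-Flx 3. A low Drd2 value raises this ratio by itself. The 3 samples lowest in Drd2 had ratios of 3.28 or more, as did HT-Veh 2 (3.73) and HT-Flx 4 (3.46).

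Adora2a (ENSMUSG00000020178; chromosome 10, 75316877 to 75334784, plus strand), the adenosine receptor of the indirect pathway, had 78.1, 319.8, 473 and 183 normalized counts in WT-Veh mice and 448, 389, 177 and 186 in WT-Flx mice. Mutants had 158, 154, 72.1 and 747 with vehicle, and 474, 257, 69.1 and 154 with fluoxetine. The HT-Veh 4 value stood far above the other 3 of its group, all below 160. Gpr6 (ENSMUSG00000046922; chromosome 10, 41069977 to 41072285, minus strand), an orphan receptor of the indirect pathway that couples to cyclic AMP, had 26.8, 65.4, 91.0 and 47.8 in WT-Veh mice and 117, 108, 58.1 and 71.1 after fluoxetine. Its HT-Veh values were 61.3, 39.9, 9.14 and 255, and its HT-Flx values 99.6, 64.7, 15.0 and 31.3. Within HT-Veh alone Gpr6 spanned 27.9-fold, the whole of its range over the 16 mice.

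The signaling genes were the most abundant and varied least. Ppp1r1b (ENSMUSG00000061718; chromosome 11, 98348404 to 98357796, plus strand), which encodes DARPP-32, had 2116, 2705, 4445 and 2689 normalized counts in WT-Veh mice and 5190, 3924, 2871 and 2674 in WT-Flx mice. Mutants had 3468, 3028, 2543 and 6589 with vehicle, and 3790, 4730.2, 2465 and 2772 with fluoxetine. In each group the highest mouse had 1.92 times the lowest or more. Pde10a (ENSMUSG00000023868; chromosome 17, 8525372 to 8986648, plus strand), a phosphodiesterase that degrades cyclic nucleotides, had 1249, 2292, 4079 and 2487 in WT-Veh mice and 2469, 3706, 2854 and 1994 in WT-Flx mice. In mutants it had 3052, 2297, 2142 and 4849 with vehicle, and 3532, 3259, 2118 and 2373 with fluoxetine. For both genes, WT-Veh 1 was the lowest and HT-Veh 4 the highest of the 16. Rgs9 (ENSMUSG00000020599; chromosome 11, 109225355 to 109298129, minus strand), a regulator of G protein signaling that shortens D2 receptor responses, had 261, 509.96, 904 and 415.5 in WT-Veh mice and 945, 990.3, 451 and 571 in WT-Flx mice. Mutants had 558, 442, 294 and 1565 with vehicle, and 955, 847, 303 and 431 with fluoxetine. The highest sample exceeded the lowest 3.11-fold for Ppp1r1b, 3.88-fold for Pde10a and 5.99-fold for Rgs9, and Rgs9 had the same lowest and highest mouse.

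Six3 (ENSMUSG00000038805; chromosome 17, 85613608 to 85629302, plus strand), a homeobox transcription factor required for D2-type neurons to form, was the least abundant. Its values were 2.10, 20.1, 62.2 and 18.5 in WT-Veh mice and 105, 87.4, 33.1 and 50.7 in WT-Flx mice. In mutants they were 34.8, 22.2, 0.605 and 140.5 with vehicle, and 81.1, 41.1, 3.00 and 24.8 with fluoxetine. The 232-fold distance between its highest and lowest sample rests on a lowest value under 1 and is not a firm number. Syndig1l (ENSMUSG00000071234; chromosome 12, 84677277 to 84698831, minus strand), a membrane protein related to a synapse-inducing factor, had 205, 169.5, 477 and 129.7 in WT-Veh mice and 551, 522, 170.2 and 338 in WT-Flx mice. Mutants had 219, 117, 24.3 and 802 with vehicle, and 351, 156, 43.8 and 130.0 with fluoxetine. It departed from the others in WT-Veh 1, where it was above its median of 188 over all samples while the other 8 genes were among their 4 lowest samples.

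**Figure D1:**
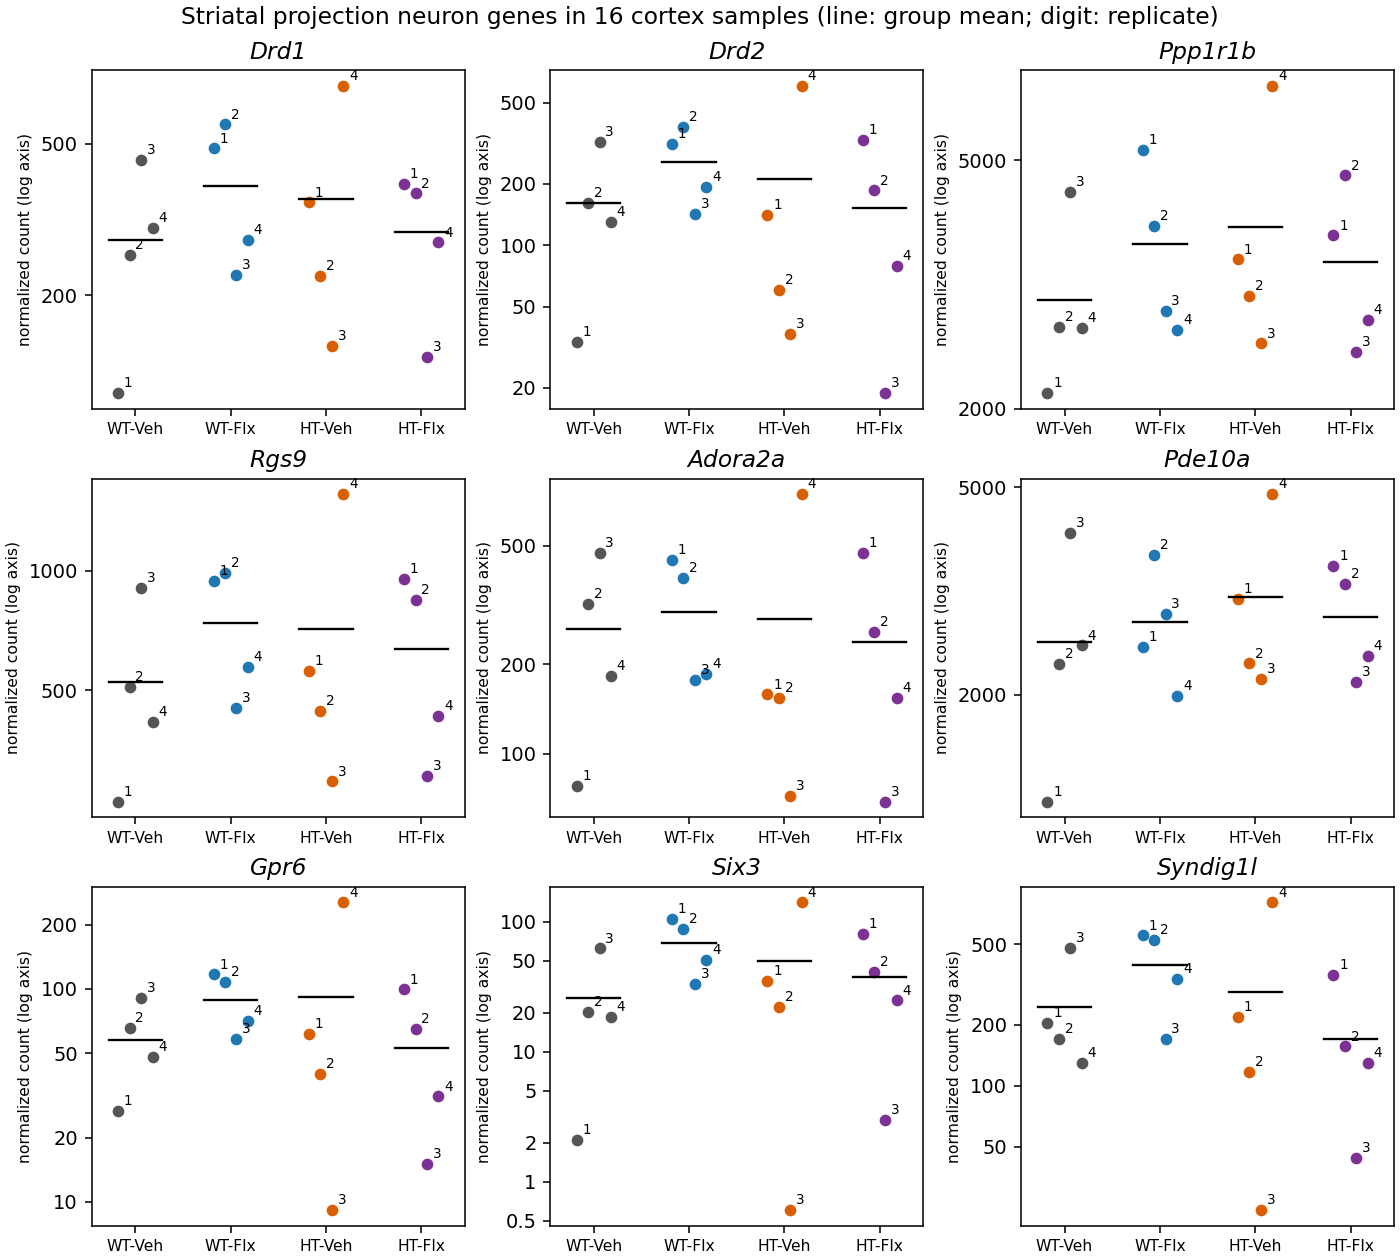
Normalized counts (log axis, different in each panel) of the 9 striatal genes by group, with 1 point per mouse, digits for replicate numbers and black lines for group means. HT-Veh 4 is the highest point in all 9 panels, and the 4 groups overlap in each.

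Per kilobase of exon, the order of the median levels was Ppp1r1b (1007), Pde10a (193), Rgs9 (83.6), Drd1 (79.7), Syndig1l (60.9), Adora2a (60.2), Drd2 (59.6), Gpr6 (35.3) and Six3 (6.23). Within each of the 16 mice, Ppp1r1b was the highest, Pde10a came next and Six3 was the lowest. Gpr6 was next to last in 14 of the 16. The order of the remaining 5 genes changed from mouse to mouse. The SD of log2(value + 1) over the 16 samples was 0.45 for Ppp1r1b, 0.47 for Pde10a, 0.74 for both Drd1 and Rgs9, 1.03 for Adora2a, 1.14 for Gpr6, 1.32 for Syndig1l, 1.39 for Drd2 and 1.87 for Six3. The median SD over the 17567 genes tested was 0.22, and between 79.9% and 99.5% of these genes had an SD below that of the member compared. Differences within groups accounted for 81.2% to 95.3% of each member's variance. Each of these shares was above the median of all genes tested, 80.7%, and within the range of the middle 90% of genes, 50.1% to 96.8%.

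To summarize each mouse, the z scores of log2(value + 1) were averaged over the 9 genes. The mean score was 1.74 in HT-Veh 4, for which each of the 9 genes had its highest value. WT-Flx 2 (0.947), WT-Veh 3 (0.905), WT-Flx 1 (0.900) and HT-Flx 1 (0.781) followed, with 6 or 7 of the 9 genes among their 4 highest samples in each. At the low end lay HT-Veh 3 (-1.51), HT-Flx 3 (-1.40) and WT-Veh 1 (-1.39). All 9 genes were among their 4 lowest samples in HT-Veh 3 and HT-Flx 3, and 8 of 9 in WT-Veh 1. The remaining 8 samples scored between -0.465 and 0.418. WT-Veh, HT-Veh and HT-Flx each contributed 1 of the 3 lowest mice, and all 4 groups contributed to the 5 highest. By group, the score of WT mice averaged -0.22 ± 0.94 (SD, n = 4) with vehicle and 0.42 ± 0.59 with fluoxetine, and that of mutants -0.036 ± 1.36 and -0.16 ± 0.97. These are descriptions and were not tested. In bulk tissue, more or fewer striatal neurons and more or less RNA per neuron cannot be told apart.

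**Figure D2:**
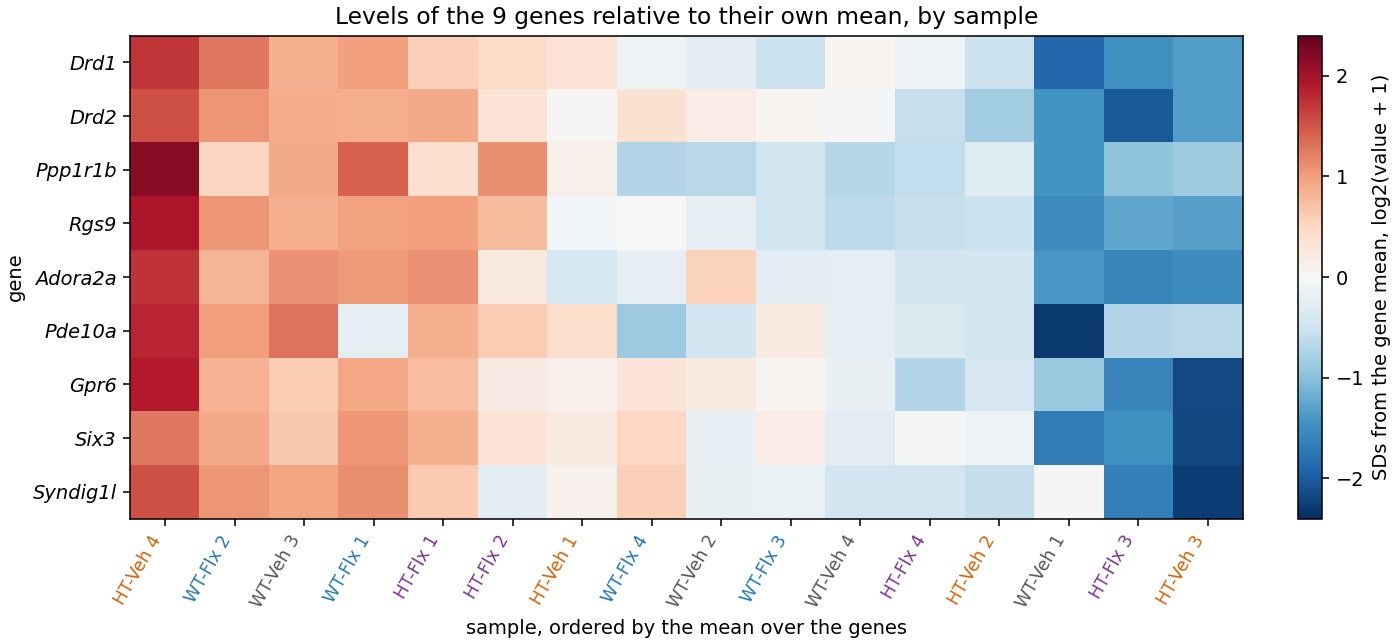
Level of each striatal gene in each sample, as SDs from that gene's mean on the log2(value + 1) scale (color), with samples ordered from the highest to the lowest mean over the 9 genes. HT-Veh 4 stands at the left and WT-Veh 1, HT-Flx 3 and HT-Veh 3 at the right, with groups mixed in between (label colors).

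The 9 genes varied together across mice. Over the 36 pairs of genes and 16 samples, Pearson's r of log2(value + 1) had a median of 0.875 and ranged from 0.524 (Pde10a and Syndig1l) to 0.955 (Drd1 and Rgs9). Spearman's rho had a median of 0.866 and ranged from 0.571 to 0.965. In permutation tests (two-sided, 100000 resamples), adjusted p over the 36 pairs was at most 0.0376 for r, and r was positive in 36 of 36 pairs. The genes were chosen with earlier results of these data known, so that these tests are not independent of that choice. With the 2 samples farthest from the median of the first gene left out, the median r was 0.888 (range 0.526 to 0.957). After the group means had been removed, it was 0.896 (range 0.649 to 0.973), so that the relation held among mice of the same group. Drd2 and Gpr6 had the highest median r with the other members, 0.929 and 0.924, and Pde10a the lowest, 0.777. In each sample, the values of both genes of a pair come from the same library. No batch is given in the labels within which the relation could be computed again.

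Genes outside the list were ranked by their r with the mean score of the 9 genes, among the 12543 genes with a mean of at least 100 normalized counts. The median r of these genes was -0.0057, and 14 exceeded 0.8, whereas 0 fell below -0.8. Among the 10 highest were Lrrc10b (0.980), Gng7 (0.934), Ccdc187 (0.916), Pde1b (0.913), Adcy5 (0.871), Tac1 (0.865), Rxrg (0.862), Rarb (0.859) and Kcnab1 (0.852). Gng7 and Adcy5 are a G protein subunit and the adenylyl cyclase that serve their dopamine receptors, and Tac1 encodes substance P of the direct pathway. Lrrc10b ran from 51.4 normalized counts in WT-Veh 1 to 799.5 in HT-Veh 4, around a median of 203. Of the 14 genes, 8 were on a list of other striatal projection neuron genes, 1, Cnp, was on the myelin list and 5 were on none. Without HT-Veh 4 the 10 genes kept r between 0.811 and 0.973, and without the 5 libraries with olfactory bulb signal between 0.738 and 0.989, over 11 samples. In those 11 samples 45 genes exceeded 0.8, of which 11 were among the 14.

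The list of other striatal projection neuron genes, 30 of which were in the table, had a median r of 0.753 with the score, and 12 of the 30 exceeded 0.8. Not all striatal genes followed: Meis2, a transcription factor also used by other neurons, had the lowest r (0.044), and Pdyn, which encodes prodynorphin, had 0.072. Isl1, a transcription factor of the direct pathway, was listed at 0 in WT-Veh 1, HT-Veh 3 and HT-Flx 3, the 3 samples with the lowest score, and was highest in HT-Veh 4 with 29.7. Penk, the enkephalin precursor of the indirect pathway, had an r of 0.754, with 4453 normalized counts in HT-Veh 4 but 2260 in WT-Veh 1. Among 21 genes of dopamine, adenosine and cyclic nucleotide signaling the median r was 0.286, and 3 exceeded 0.8, namely Gng7, Adcy5 and Pde1b, which are also on the striatal list.

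Markers of other cells that a dissection of frontal cortex can hold were compared with the same score. The 10 myelin genes had a median r of 0.734 (range 0.590 to 0.836, highest for Cnp), and their summed level was lowest in HT-Flx 3 (66578) and WT-Veh 1 (66696) and highest in HT-Flx 1 (118285), with 103975 in HT-Veh 4. The 4 cholinergic genes measured had a median r of 0.684, and their summed level was highest in HT-Veh 4, at 326. Genes of deep cortical layers and claustrum had a median r of 0.341, ranging from -0.0011 for Nxph4 to 0.799 for Foxp2. The median r was near 0 for cortical projection neurons (0.025), cortical interneurons (-0.096) and neuroblasts (0.107). For choroid plexus and ependyma it was 0.282, ranging from -0.089 for Ttr to 0.664 for Ccdc153, which was listed at 0 in 4 samples.

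**Figure D3:**
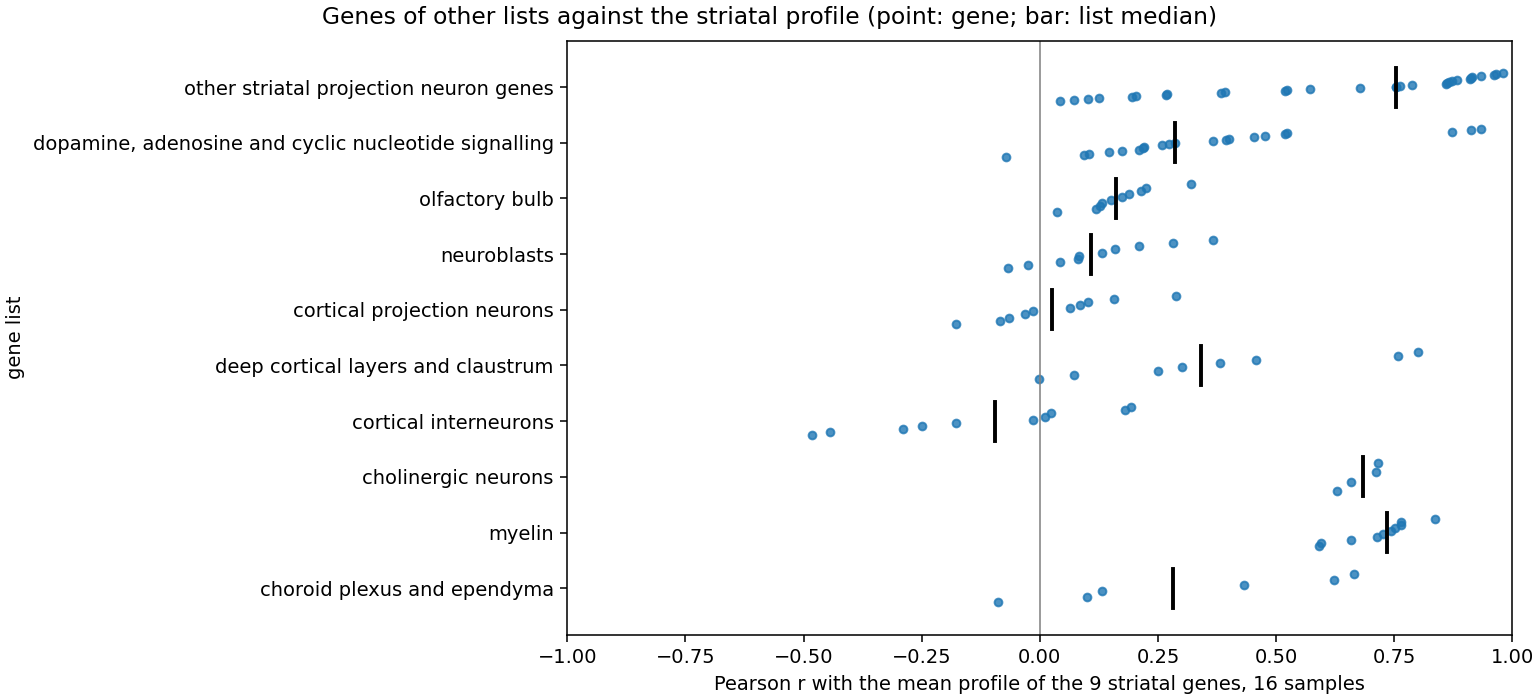
Pearson r of each gene of 10 lists (points, 1 list per line) with the mean score of the 9 striatal genes over 16 samples, with list medians as bars. Other striatal genes (median 0.753), myelin (0.734) and cholinergic genes (0.684) lie to the right, whereas cortical projection neuron genes (0.025) center near 0.

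Olfactory bulb genes followed another order of mice. Their median r with the score was 0.162, with a range from 0.036 to 0.321. Their summed level was 13982 in WT-Veh 1 and 10591 in WT-Flx 4, of which the first was among the 3 lowest samples for striatal genes and the other near the middle (-0.017). In HT-Veh 4, WT-Flx 1 and WT-Flx 2, which were high for striatal genes, it was 4326, 2928 and 4738. In the other 11 samples it lay between 425 and 676, and these included WT-Veh 3 and HT-Flx 1 with striatal scores above 0.75. In HT-Flx 3, low for striatal genes, the bulb marker Eomes was listed at 0 and the summed level was 502. What part myelin, cholinergic or bulb tissue has in the differences between mice was not tested.

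**Figure D4:**
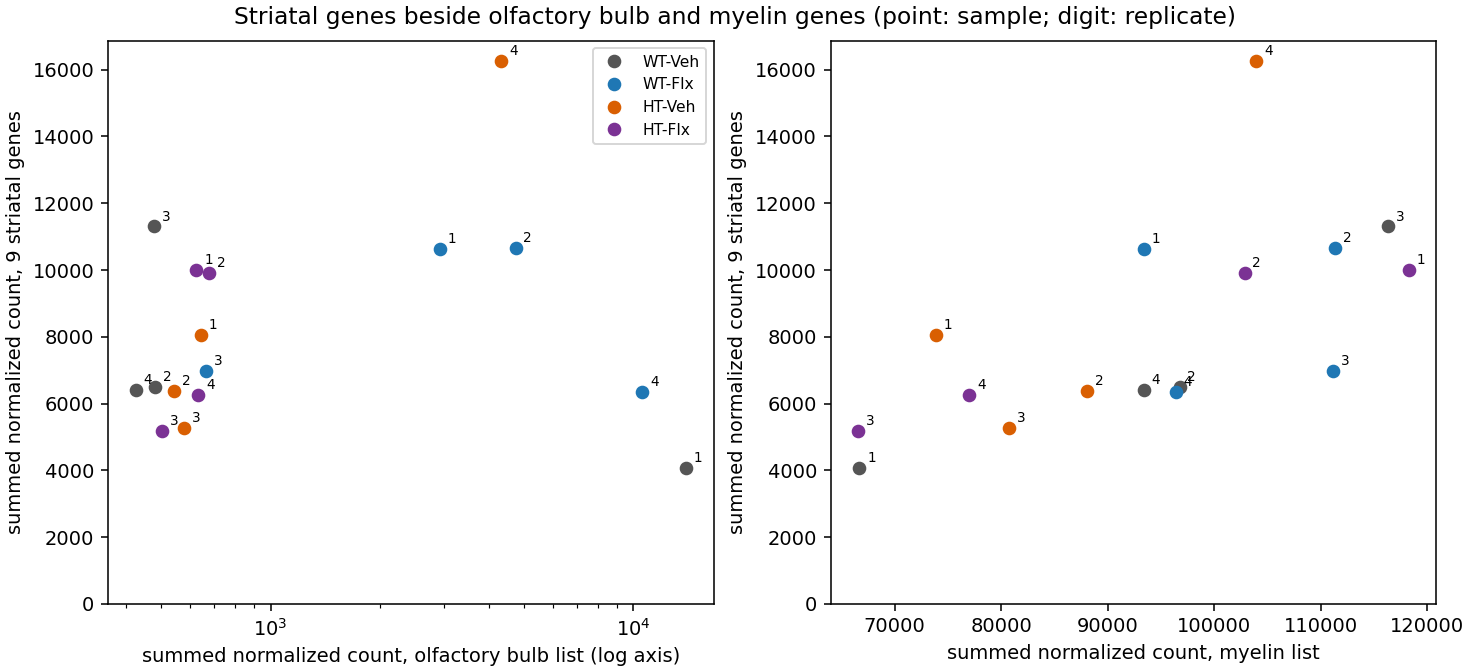
Summed normalized counts of the 9 striatal genes (vertical axes) against those of 10 olfactory bulb genes (left, log axis) and 10 myelin genes (right), with 1 point per mouse. HT-Veh 4 is highest at 16265, samples with little bulb signal reach from 5173 to 11306, and the pair of samples lowest in myelin, HT-Flx 3 and WT-Veh 1, are also the lowest in striatal genes.

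The first group comparison asked how Arid1b haploinsufficiency changed the adult mPFC without the drug. No striatal gene passed the threshold between HT-Veh and WT-Veh, and HT-Veh held both the highest mouse and one of the lowest. With limma on log2(value + 1) and an adjusted p below 0.05, 0 of the 9 genes were called, against 3 of 16832 genes tested (0.0178%), and 0 of 9 had a p below 0.05. The groups did not overlap for 0 of the 9 genes and for 3.84% of all genes. The median log2 difference over the 9 was 0.28, with 5 higher in HT-Veh by mean log2 value, against 0.0062 over all genes tested. Drd2, Adora2a, Gpr6 and Syndig1l were lower in HT-Veh by mean log2 value but higher by mean normalized count. Of the pair with the smallest p, Ppp1r1b averaged 3907 ± 1827 (SD, n = 4) in HT-Veh and 2989 ± 1009 in WT-Veh, a log2 difference of 0.34 (SE 0.29, 95% interval -0.31 to 0.99, limma adjusted p = 0.922). Pde10a averaged 3085 ± 1241 and 2526 ± 1169, a log2 difference of 0.33 (SE 0.34, 95% interval -0.43 to 1.096, limma adjusted p = 0.924). The median difference of the 9 genes turned to -0.62 without HT-Veh 4, to -0.40 without WT-Veh 1 and to -1.18 without both, the bulb libraries of these groups. It was 0.045 without HT-Veh 1, 0.51 without HT-Veh 3 and 0.55 without WT-Veh 3. Ppp1r1b ranged from 0.056, without HT-Veh 4, to 0.55, without WT-Veh 3, and Pde10a from 0.034, without WT-Veh 1, to 0.60, without WT-Veh 3. Without both bulb libraries they became -0.092 and -0.21.

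To ask what early fluoxetine changed in the mutant, HT-Flx was compared with HT-Veh. Here, too, limma called 0 of 9 striatal genes, as it called 0 of 16814 genes (0%), with 516 genes below an unadjusted p of 0.05 and none of the 9 among them. Groups did not overlap for 0 of 9 genes and 1.99% of all. The median log2 difference was -0.13, with 1 gene, Six3, higher in HT-Flx by mean log2 value, against 0.0030 over all genes. By mean normalized count Six3 was lower in HT-Flx, with 37.5 against 49.5 in HT-Veh. Ppp1r1b averaged 3439 ± 1030 in HT-Flx, a log2 difference of -0.13 (SE 0.27, 95% interval -0.72 to 0.46, limma adjusted p = 1.00), and Pde10a 2820 ± 681, a difference of -0.083 (SE 0.24, 95% interval -0.60 to 0.43, limma adjusted p = 1.00). The median turned to 0.53 without HT-Veh 4, which is the bulb library of these groups, and to 0.28 without HT-Flx 3. Over the mice left out singly it ranged from -0.49, without HT-Veh 3, to 0.53. Without HT-Veh 4, Ppp1r1b became 0.15 and Pde10a 0.16.

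In WT mice, all 9 genes had a higher mean log2 value after fluoxetine, and none passed the threshold. The limma fit of WT-Flx against WT-Veh called 0 of 9, and 0 of all 16833 genes (0%), with 707 of these below an unadjusted p of 0.05. The groups did not overlap for 0 of 9 genes and for 2.89% of all. The median log2 difference was 0.57, against -0.00091 over all genes. Six3 averaged 69.0 ± 32.9 in WT-Flx and 25.7 ± 25.7 in WT-Veh, a log2 difference of 1.92 (SE 0.77, 95% interval 0.20 to 3.64, limma adjusted p = 1.00), and was the 1 member of 9 with an unadjusted p below 0.05, against 4.20% of all genes. It became 1.104 (SE 0.49) without WT-Veh 1, 2.55 (SE 0.69) without WT-Veh 3 and 2.49 (SE 0.69) with the bulb score as a covariate. Without the bulb libraries, with WT-Flx 3 alone in its group, Six3 differed by 0.20 (SE 0.62). Gpr6 averaged 88.6 ± 28.4 and 57.8 ± 27.2, a difference of 0.68 (SE 0.37, 95% interval -0.14 to 1.4995, limma adjusted p = 1.00). It became 0.37 without WT-Veh 1, 0.89 with the bulb covariate and -0.18 without the bulb libraries. Bulb libraries made up 3 of the 4 WT-Flx samples, and without these and WT-Veh 1 the median over the 9 genes became -0.35, from WT-Flx 3 alone. It was 0.28 without WT-Veh 1, 0.88 without WT-Veh 3 and 0.74 with the bulb covariate.

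Between the fluoxetine-treated groups, HT-Flx against WT-Flx, 1 of the 9 genes, Pde10a, had a higher mean log2 value in HT-Flx, and again none passed. Limma called 0 of 9 genes, against 7 of 16788 (0.0417%), and non-overlapping groups were found for 0 of the 9, compared with 5.83% of all genes. The median log2 difference was -0.53, against 0.0081 over all genes. Syndig1l averaged 170.2 ± 129.6 in HT-Flx and 395 ± 177 in WT-Flx, a difference of -1.42 (SE 0.53, 95% interval -2.57 to -0.28, limma adjusted p = 0.391), and was the 1 member of 9 with an unadjusted p below 0.05, where 1754 of all genes (10.4%) were. It became -0.89 (SE 0.42) without HT-Flx 3, -0.27 (SE 0.76) with the bulb score as a covariate and -0.35 (SE 0.84) without the bulb libraries. Without HT-Flx 1 it was -1.89 (SE 0.47), and without WT-Flx 3 it was -1.78. Gpr6 averaged 52.6 ± 37.5 and 88.6 ± 28.4, a difference of -1.001 (SE 0.48, 95% interval -2.05 to 0.045, limma adjusted p = 0.489). It became -0.53 without HT-Flx 3, -1.41 without HT-Flx 1, -0.40 with the covariate and -0.46 without the bulb libraries. With the 3 bulb libraries of WT-Flx left out, which leaves this group with 1 sample, the median over the 9 genes was -0.049. It was -0.083 without HT-Flx 3, -0.30 without WT-Flx 1 and -0.97 without HT-Flx 1.

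**Figure D5:**
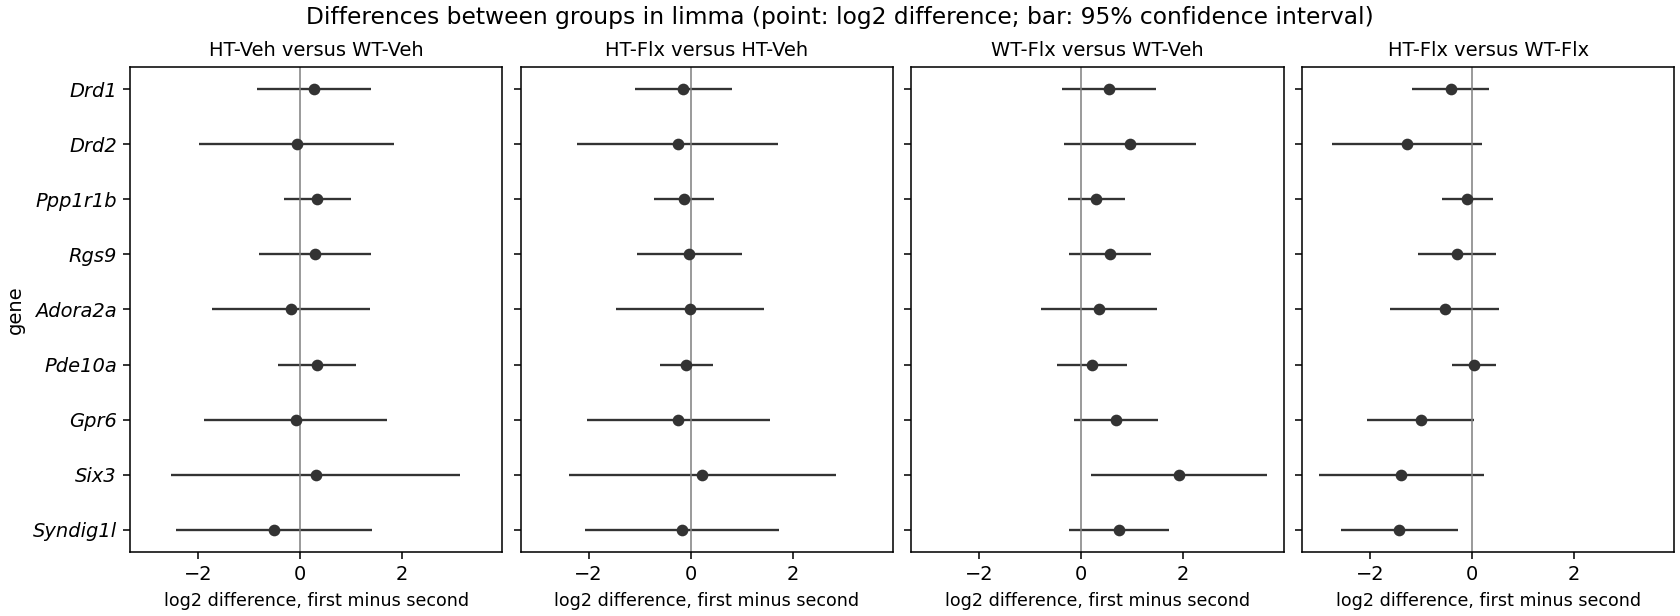
Log2 difference (horizontal axes, first group minus second) of each striatal gene in the 4 pairwise comparisons, with 95% confidence intervals from limma that are not adjusted for multiple tests. Of 36 intervals, those of Six3 in WT-Flx versus WT-Veh (0.20 to 3.64) and Syndig1l in HT-Flx versus WT-Flx (-2.57 to -0.28) exclude 0. Without the bulb libraries, which leaves WT-Flx with 1 sample, those genes differ by 0.20 (SE 0.62) and -0.35 (SE 0.84). With the bulb score as a covariate they differ by 2.49 and -0.27.

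Fits over all 16 mice called none of the 9 genes either. The interaction, the fluoxetine difference in HT minus that in WT, was called for 0 of 9 genes and 0 of 17567 (0%), with 754 genes and 0 members at an unadjusted p below 0.05. Its median over the 9 genes was -0.68, with every member below 0, and it was -0.14 without HT-Veh 4, -0.31 without WT-Veh 1, -0.36 without HT-Flx 3 and -1.03 without HT-Veh 3. Without the 5 bulb libraries, with WT-Flx at 1 sample, it was 0.80. Ppp1r1b had an interaction of -0.43 (SE 0.41, 95% interval -1.30 to 0.44) and Six3 one of -1.69 (SE 1.62, 95% interval -5.10 to 1.72), both with a limma adjusted p of 0.998. They became 0.30 and 0.95 without the bulb libraries. Over the mice left out singly, that of Six3 ranged from -2.92, without HT-Veh 3, to -0.77, without HT-Veh 4, and that of Ppp1r1b was -0.14 without HT-Veh 4. For genotype over both treatments, 8 HT against 8 WT mice, 0 of 9 genes were called against 7 of 17567 (0.0398%), and the median log2 difference was -0.36. This median was -0.82 without the bulb libraries and -0.67 without HT-Veh 4, -0.59 without WT-Veh 1, -0.54 without HT-Flx 1, -0.23 without WT-Flx 1, -0.196 without WT-Veh 3, -0.072 without HT-Flx 3 and -0.034 without HT-Veh 3. Syndig1l had a difference of -0.97 (SE 0.55, 95% interval -2.13 to 0.19, limma adjusted p = 0.480) and Drd2 one of -0.67 (SE 0.61, 95% interval -1.95 to 0.61, limma adjusted p = 0.653). Syndig1l became -0.61 without HT-Veh 3 and -0.48 with the bulb covariate, but -1.37 without HT-Veh 4 and -0.997 without the bulb libraries. Drd2 became -0.26 without HT-Flx 3, -1.08 without HT-Veh 4 and -1.14 without the bulb libraries. For fluoxetine over both genotypes, limma called 0 of 9 and 0 of 17567 genes (0%), with 546 genes below an unadjusted p of 0.05. The median was 0.22, with all 9 members above 0. It was 0.017 without WT-Veh 1, 0.020 without HT-Veh 3, 0.101 without HT-Flx 1, 0.12 without WT-Flx 1, 0.13 without WT-Flx 2, 0.43 without HT-Flx 3 and 0.51 without HT-Veh 4. Without the bulb libraries the median was 0.22. Six3 had a difference of 1.07 (SE 0.81, 95% interval -0.62 to 2.77) and Rgs9 one of 0.27 (SE 0.33, 95% interval -0.43 to 0.97), both with a limma adjusted p of 1.00. Six3 became 0.63 without WT-Veh 1, 0.57 without HT-Veh 3 and 0.69 with a pseudocount of 8. It rose to 1.54 without HT-Flx 3 and to 1.56 without HT-Veh 4. Rgs9 ranged from 0.12, without WT-Veh 1, to 0.51, without HT-Veh 4. Without the bulb libraries Six3 became 0.86 and Rgs9 0.21. For the genes that vary most the intervals were wide. Between HT-Veh and WT-Veh they ran from -2.53 to 3.14 on the log2 scale for Six3 and from -1.98 to 1.85 for Drd2, so that differences of that size could not be told from 0 with 4 mice per group.

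Among dopamine, adenosine and cyclic nucleotide signaling genes, 0 of the 19 to 21 tested were called in either direction in any of the 7 comparisons by limma. Over all 10 other lists, 1 gene was called. This was Pdyn, the precursor of the opioid peptide dynorphin, 1 of 29 tested genes of the other striatal list, and it was higher in HT over both treatments. Mutants had 855.6, 839.9, 778 and 801 normalized counts with vehicle and 769, 1044, 758 and 678 with fluoxetine. WT mice had 459, 563, 609 and 529 with vehicle and 626, 465.5, 515 and 333 with fluoxetine. All 8 HT mice were above all 8 WT mice, and the share of all genes that separate the genotypes this way is not given here. In this comparison 7 of 17567 genes (0.0398%) were called. Pdyn averaged 815 ± 107 (SD, n = 8) in HT and 512.5 ± 94.5 in WT mice, a log2 difference of 0.68 (SE 0.11, limma adjusted p = 0.0350). Its order of mice was not that of the 9 genes: HT-Veh 4 and HT-Veh 3, the highest and lowest striatal samples, had 801 and 778. The call held in 14 of 26 alternatives of the analysis (limma adjusted p 0.0026 to 0.131). It was lost with the bulb score as a covariate (0.0899), without the 5 bulb libraries (0.131) and when WT-Veh 1 (0.0560), WT-Veh 2 (0.0579), WT-Flx 2 (0.0788), WT-Flx 3 (0.0791), HT-Veh 1 (0.0920), HT-Veh 2 (0.0648), HT-Veh 3 (0.0579), HT-Flx 1 (0.0530), HT-Flx 2 (0.0503) or HT-Flx 3 (0.0664) was left out. The log2 difference stayed between 0.57 and 0.70 in these.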

How the data were processed

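RNA was sequenced by the authors from TruSeq stranded poly-A libraries as paired-end reads, quantified with Salmon 1.1.0 (GC bias correction, GRCm38), summarized with tximport and normalized in DESeq2 1.30.1. The deposited signal is a normalized count, which is not whole (0% of values above 0), so that depth and counting error are unknown. Groups and replicate numbers came from sample titles. Nothing says that numbers pair mice. Genes were matched by Ensembl identifier, with positions from GENCODE on GRCm38.

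Comparisons used limma 3.58.1 in R 4.3.3 (trend) on log2(value + 1), which understates changes of low genes, over genes with at least 10 in at least 4 samples of the fit, two-sided, Benjamini-Hochberg adjusted over all genes. All 9 members passed this filter. The fit was tested on simulated data. Correlations used 100000 permutations in scipy 1.17.1. All 9 genes were named, with log2 differences for the 2 smallest p per comparison, and the 10 genes most like them. Other genes were chosen after their values were seen. Members and lists were chosen with earlier results of these data known. Some listed genes, such as Drd3, Gpr52 and Lhx8, were not used here, and 1 of the 10 most similar genes is not reported here. Alternatives were pseudocounts, filters, scalings, weights, a bulb covariate, a block and left-out mice. Leaving out mice in the ranking of similar genes was added after seeing the data.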

Additional observations from a re-analysis of the deposited data

Results flagged for a closer look

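In HT-Veh, Adora2a, an adenosine receptor gene, reached 747 normalized counts in replicate 4 against 158, 154 and 72.1 in the others of its group. The gap to the nearest of them was 0.872 of the range of the group, above the critical value for 4 samples. Of the 36 combinations of gene and group examined, this was the 1 so marked, and chance alone marks about 1 in 20. The same library was the highest for each of the 9 genes.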

How the results depend on the processing

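In the 154 alternatives run over the 7 comparisons, none of the 9 genes was called. Where a mean value of at least 100 was required, only 7 of the 9 were tested. The lowest limma adjusted p of any member was 0.0809. This was Syndig1l in HT-Flx against WT-Flx when replicate numbers entered as a block. Whether replicate numbers pair mice is unknown. Same-numbered samples had correlations of their deviations above 0.1 in 1, 1, 3 and 1 of 4 pairs of the 4 comparisons. The highest was 0.31, in WT-Flx against WT-Veh. With the block, 0 members were called in every comparison, and limma called 0, 0, 0 and 5 genes in the pairwise fits in the order of the text. Of 303 alternative values of the 14 differences printed with intervals, 288 kept their direction and 15 did not, and the cause was not tested. Without the libraries of high bulb score, which leaves WT-Flx with 1 sample, Ppp1r1b and Pde10a in HT-Veh against WT-Veh became -0.092 and -0.21, Gpr6 in WT-Flx against WT-Veh -0.18, and the interactions of Ppp1r1b and Six3 0.30 and 0.95. In HT-Flx against HT-Veh, HT-Veh replicate 4 was the only such library, so leaving it out and leaving out these libraries was the same fit. There Ppp1r1b and Pde10a became 0.15 and 0.16. They became 0.18 and 0.20 with the bulb score as a covariate, and 0.013 and 0.044 without HT-Flx replicate 3. Over all single mice left out, they ranged from -0.30 to 0.15 and from -0.23 to 0.16. With sample quality weights, Pde10a became 0.0067 in that comparison and -0.022 in HT-Veh against WT-Veh, and the median over the 9 genes in the latter became -0.66. Over all genes, calls ranged from 0 to 21 in HT-Veh against WT-Veh, 0 to 12 in WT-Flx against WT-Veh, 0 to 23 in HT-Flx against WT-Flx, 0 to 2 for the interaction and 1 to 23 for genotype, and stayed at 0 for HT-Flx against HT-Veh and for fluoxetine. The number of pairs of striatal genes with an adjusted p below 0.05 was 35 or 36 of 36 in each alternative. With depth unknown, low values such as Six3 near 1 carry no stated error.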
